A study of Mus musculus with 6 samples.

Results

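The baseline transcriptome of AE9a leukemia cells was read from the 3 libraries of the oil-treated group, taken as all 23608 gene rows of the deposited count table in the vehicle columns, out of 6 libraries in the series. AE9a is a truncated splice form of the AML1-ETO (RUNX1-RUNX1T1) fusion of acute myeloid leukemia with a chromosome translocation. Hematopoietic cells of Usp18+/f UBCER-Cre mice, which carry 1 floxed Usp18 allele and a tamoxifen-inducible Cre driven by the ubiquitin C promoter, had been transduced with a retrovirus encoding AE9a and GFP and passaged through recipient mice. The oil recipients received the vehicle after disease had become apparent, so Cre had not been activated by the drug, and GFP+ lineage-negative (Lin-) c-Kit+ splenocytes were sorted 3 days after the first injection. The recipients were sub-lethally irradiated adult C57BL/6 mice, so host blood cells could remain in the spleen, with 1 mouse per library. Whether all of them carried cells of a single primary leukemia is not given in the sources used here. The labels call this set batch 2 of the experiment. The sample titles number the oil libraries 1, 2 and 4 and the table numbers them 1, 3 and 4. The table's numbers were kept (oil 1, oil 3 and oil 4), and no column was tied to a title.

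RUNX1 is a core transcription factor of blood cell formation that binds DNA together with CBFB. In the AML1-ETO fusion its DNA-binding domain is joined to the corepressor ETO, and the protein works within a complex of E-proteins, LMO2, LDB1 and LYL1. GATA2 serves stem cells, early progenitors and mast cells, GATA1 serves erythroid cells, megakaryocytes and mast cells, and KIT, the receptor of stem cell factor, is found on stem and progenitor cells and on mast cells. Levels between libraries are given below in CPM, counts relative to a library total that was scaled by the trimmed mean of M-values (TMM), and levels between genes in TPM, which also divide by the exon length of the gene before they are made relative to the total.

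The libraries held 17856555.5, 20741399 and 19395456 counts (oil 1, oil 3 and oil 4), with TMM factors between 0.997 and 1.006. A gene was called detected when it reached 1 CPM in each library, and 10693 of 23608 rows (45.3%) did. Of the rest, 9041 rows had 0 counts in all libraries and 3874 had some counts. The levels spanned a wide range, with 8611 rows at or above 10 CPM in each library, 2590 at or above 100 CPM and 51 at or above 1000 CPM. A count of 0 in a library allowed up to 3 counts, that is 0.145 to 0.168 CPM, and such limits cover counting error only. Rn45s, the ribosomal RNA precursor, took 0.285% of the counts in oil 1, 0.475% in oil 3 and 0.419% in oil 4.

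The 4 markers given for the population were all detected, at very unequal levels. Kit measured 449, 438 and 449 CPM in oil 1, oil 3 and oil 4 (445 ± 6.09, SD, n = 3). Its level was nearly the same in every library, and c-Kit protein was the antigen sorted for. Gata2 measured 529, 512 and 455 CPM. Ms4a2, the beta chain of the high-affinity IgE receptor of mast cells and basophils, measured 860, 907 and 914 CPM. Cd34, a surface glycoprotein of stem and progenitor cells, was far lower at 9.66, 8.39 and 11.7 CPM. Per length the order was Ms4a2 at 1203 ± 41.9 TPM, Gata2 at 350 ± 25.1, Kit at 189 ± 4.09 and Cd34 at 5.15 ± 0.909 TPM (SD, n = 3), and the ranges of neighbors in this order did not overlap. Ms4a2 ranked 79th and Cd34 ranked 9485th of the 23031 rows with a length. Usp18, the interferon-induced protease of which these cells kept the floxed copy, measured 9.10, 10.9 and 11.1 CPM and ranked 8002nd at 14.1 ± 1.55 TPM.

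**Figure D1:**
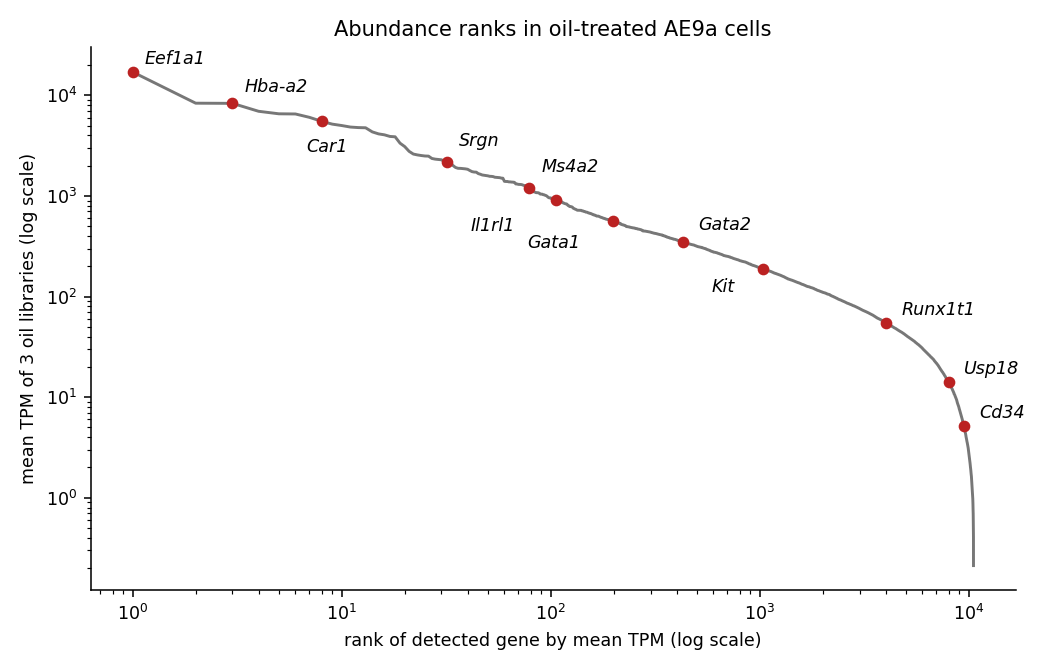
Mean TPM of the 3 oil libraries against abundance rank for detected genes with an exon length, both on log scales, with named genes as red points. Eef1a1 stood first, Ms4a2 and Il1rl1 lay near each other, well above Kit, and Usp18 and Cd34 lay near the foot of the curve.

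Most of the 25 genes of highest TPM encoded parts of the translation machinery, and most of the others were erythroid or housekeeping genes. Eef1a1, the elongation factor that brings aminoacyl-tRNA to the ribosome, was first at 17026 ± 606 TPM (SD, n = 3). Rplp1 followed at 8348 ± 966 TPM, and Rplp0, Eef2 and Rpl8 reached 6547 ± 180, 6522 ± 252 and 6040 ± 113 TPM. Further ribosomal or ribosomal pseudogene rows in this group were Rpl4, Rps15, Gm15772, Rpl14-ps1, Rpl32, Rps2, Rpl7, Rps4x and Rpl34-ps1, between 2520 and 4756 TPM. Housekeeping members were Actb at 4777 ± 24.4, Hsp90ab1 at 4046 ± 294, Tuba1b at 3869 ± 374 and Ptma at 2773 ± 225 TPM.

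Erythroid and redox genes made up what remained. The alpha globin rows Hba-a2 and Hba-a1 ranked next after Rplp1 at 8316 ± 2117 and 6935 ± 1759 TPM. Hbb-bs, an adult beta globin, was 11th at 4834 ± 1100 TPM. Car1, the carbonic anhydrase of red cells, was 8th at 5516 ± 529 TPM. Gpx1, a peroxidase that removes hydrogen peroxide, and Mt2, a metal-binding metallothionein, reached 5170 ± 279 and 5005 ± 300 TPM. Rows for near-identical genes carried nearly the same counts: Hba-a1 and Hba-a2 differed by at most 1.67%, Hbb-b1 and Hbb-bs by at most 0.311%, and Rpl26 and Gm15772 by at most 0.907%. The level of each single row in such a pair is therefore uncertain, because reads of one copy could be counted at the other.

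The transcriptome was not dominated by a few genes. The top 100 genes held 23.9%, 24.5% and 23.6% of all TPM in oil 1, oil 3 and oil 4. The 85 ribosomal protein rows took 3.23% to 3.32% of the counts, and the Hba-a1, Hba-a2, Hbb-bs and Hbb-bt rows took 0.395%, 0.516% and 0.310%. Further down, Srgn, the proteoglycan of secretory granules, ranked 32nd at 2176 ± 112 TPM. Prnp, the prion protein gene, ranked 42nd at 1743 ± 122 TPM and was chosen after its values were seen.

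The mast cell list was among the best represented. Mast cells are granulated effector cells of allergy that store histamine, heparin and proteases and are activated through the IgE receptor. Of 30 members, 23 were detected (76.7%, beside 45.3% of all rows), and 8 of the 10 defining markers were. Among these 8 were Kit, whose protein was sorted for, and Gata2 and Ms4a2. All of these had been given as markers of the population beforehand, so their detection adds no separate support for a mast cell identity. Its summed level was 8291, 8630 and 8696 CPM in oil 1, oil 3 and oil 4. Il1rl1, the receptor of IL-33, was the highest member in CPM at 1615, 1677 and 1659. Hdc, the enzyme that makes histamine, measured 1055, 1208 and 1142 CPM. These levels were close in all libraries. Srgn measured 1215, 1246 and 1325 CPM, and Ndst2, an enzyme of heparin sulfation, 884, 884 and 911 CPM. The granule proteases were lower in CPM, with Cma1 at 246, 241 and 317 CPM, Cpa3 at 126, 113 and 156 CPM, and Mcpt4 at 15.8, 18.5 and 19.0 CPM. Per length, however, Cma1 was among the 5 members of highest TPM in the list, and Hdc was not. Both Cma1 and Cpa3 were highest in oil 4. Fcer1a, the IgE-binding alpha chain, measured 68.1, 97.8 and 85.4 CPM.

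Parts of the mature mast cell set were missing. Fcer1g, the signaling gamma chain of the IgE receptor, measured 0.393, 0.193 and 0.102 CPM and was not detected, whereas Fcer1a and Ms4a2, the chains that assemble with it, were. It was chosen after its values were seen. The tryptase genes Tpsab1 at 0.449, 1.28 and 1.36 CPM and Tpsb2 at 0.112, 0.314 and 0.282 CPM also fell short of 1 CPM in at least 1 library. Mrgprb1 alone of the list had 0 counts throughout. The basophil list shared Ms4a2, Gata2 and Fcer1a with it and had 6 of 15 members detected, a share near and below the 45.3% of all rows. Cd200r3, a receptor of basophils and mast cells, measured 113, 121 and 98.2 CPM. The basophil proteases Mcpt8 (0.898, 0.459 and 0.513 CPM) and Prss34 (0.281, 0.290 and 0.615 CPM) were not detected.

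The erythroid list had the largest share of detected members among the cell type lists, 24 of 26 (92.3%, beside 45.3% of all rows). All 10 defining markers were detected. Erythroid precursors form hemoglobin under GATA1 and KLF1 and depend on the erythropoietin receptor. The summed level was 10567, 11770 and 9432 CPM in oil 1, oil 3 and oil 4. Gata1 measured 374, 364 and 346 CPM, and Klf1 370, 364 and 362 CPM. Epor, the erythropoietin receptor, measured 74.9, 76.3 and 77.1 CPM. The regulators and the receptor thus differed little between mice. Car1 measured 1658, 1811 and 1987 CPM, and Car2 measured 1330, 1124 and 1079 CPM. Their orders over the libraries were opposite, with Car1 lowest and Car2 highest in oil 1.

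The genes of hemoglobin and of the late red cell membrane varied more. Hba-a1 measured 1419, 1911 and 1140 CPM, Hbb-bs 1034, 1183 and 730 CPM, and Hbb-bt 113, 193 and 90.6 CPM. Alas2, which starts heme synthesis in erythroid cells, measured 73.8, 87.3 and 38.5 CPM. Slc4a1, the anion exchanger band 3, measured 132, 168 and 44.99 CPM. Each of these was highest in oil 3 and lowest in oil 4. Over the 24 detected members, 17 were lowest in oil 4, beside 31.7% of all detected genes, and the Hba-a1 and Hba-a2 rows count nearly the same reads among them. The embryonic globins Hbb-y and Hbb-bh1 stayed under 1 CPM, and both were chosen after their values were seen. Bulk counts do not show whether the mast cell and erythroid transcripts came from the same cells, and fewer cells of a type cannot be told apart from less RNA per cell.

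**Figure D2:**
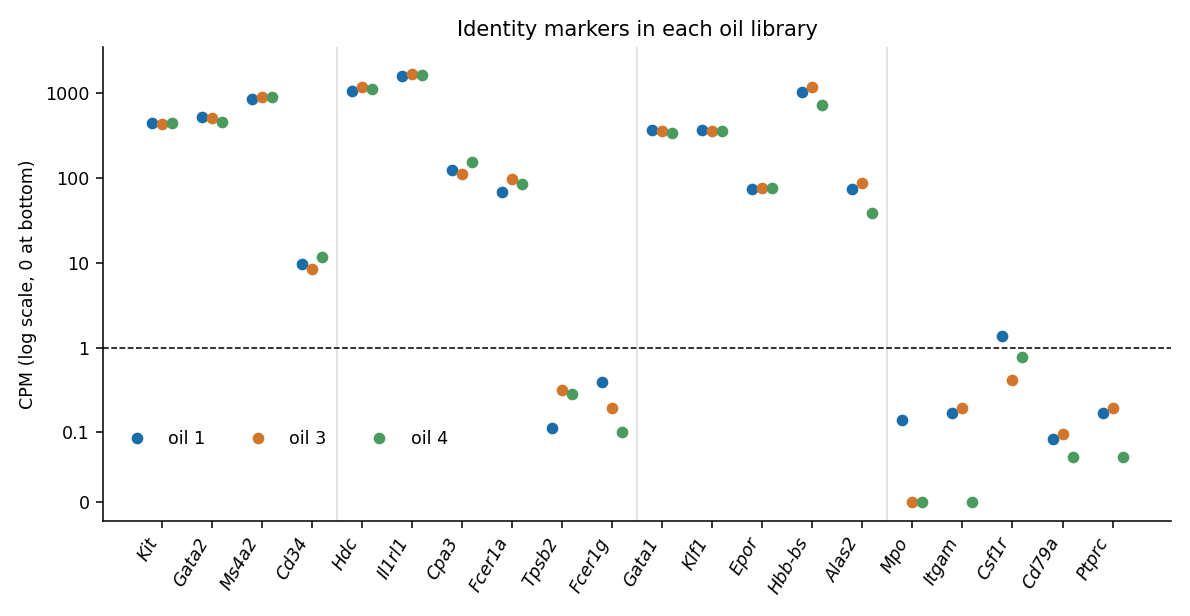
CPM of identity markers in each oil library (blue, oil 1; orange, oil 3; green, oil 4) on a log scale, with 0 counts at the bottom and the 1 CPM detection minimum dashed. Population, mast cell and erythroid markers lay mostly at or above 10 CPM, and Tpsb2, Fcer1g, Cd79a, Mpo, Itgam and Ptprc lay below 1 CPM.

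Promoter sequences of detected mast cell and erythroid genes are shown because many genes of both lists are known targets of GATA factors. The 250 bases before each RefSeq transcript start (GRCm38.p6) were searched for AGATAA or its reverse complement TTATCT, given in capitals below. The motif occurred before 5 of the 20 detected mast cell members that had a window and before 7 of the 19 erythroid members. It occurred before 7.56% of the 8439 detected genes with a window and in 9.99% of all 32851 windows. A gene with several starts had several windows, and a match is a description of the letters, not of binding.
Ms4a2 (chr19:11623720-11623969, minus strand): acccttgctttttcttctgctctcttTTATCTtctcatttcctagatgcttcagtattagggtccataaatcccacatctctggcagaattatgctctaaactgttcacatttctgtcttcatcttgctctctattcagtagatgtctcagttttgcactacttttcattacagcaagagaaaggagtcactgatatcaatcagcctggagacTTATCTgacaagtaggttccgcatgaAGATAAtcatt
Il1rl1 (chr1:40429320-40429569, plus strand): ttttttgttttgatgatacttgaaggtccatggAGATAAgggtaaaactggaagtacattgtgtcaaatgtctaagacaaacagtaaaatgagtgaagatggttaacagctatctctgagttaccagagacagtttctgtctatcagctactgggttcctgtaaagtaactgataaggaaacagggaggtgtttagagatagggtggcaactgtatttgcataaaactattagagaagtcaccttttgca
Cpa3 (chr3:20242182-20242431, minus strand): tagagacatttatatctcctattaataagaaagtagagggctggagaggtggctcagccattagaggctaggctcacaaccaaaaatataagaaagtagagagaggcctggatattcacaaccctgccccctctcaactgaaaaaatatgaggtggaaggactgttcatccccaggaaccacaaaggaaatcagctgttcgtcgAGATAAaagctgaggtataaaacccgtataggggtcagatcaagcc
Epor (chr9:21963577-21963826, minus strand): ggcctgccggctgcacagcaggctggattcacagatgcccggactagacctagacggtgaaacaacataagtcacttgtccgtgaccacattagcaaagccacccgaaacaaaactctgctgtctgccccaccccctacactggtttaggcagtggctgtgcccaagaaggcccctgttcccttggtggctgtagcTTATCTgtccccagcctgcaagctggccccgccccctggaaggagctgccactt
Alas2 (chrX:150547167-150547416, plus strand): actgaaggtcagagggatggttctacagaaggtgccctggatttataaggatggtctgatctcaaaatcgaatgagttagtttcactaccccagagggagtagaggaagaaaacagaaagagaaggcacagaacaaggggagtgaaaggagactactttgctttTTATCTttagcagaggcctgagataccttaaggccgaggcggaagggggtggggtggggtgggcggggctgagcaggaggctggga
Ms4a2 carried 3 copies in its window and the others 1 each in the window shown. Il1rl1 had a second start, and its own window, not shown, also carried 1 copy. Among the defining markers, Fcer1a and Hbb-bs also had the motif, and Hdc, Cma1, Klf1 and Gata1 had none in these windows.

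Neutrophil and lymphoid genes were mostly not detected, beside a share of 45.3% detected over all rows. All 20 neutrophil genes were under 1 CPM, with 13 at 0 counts in every library, including S100a8, Ngp, Ltf, Lcn2 and Ly6g. None of 19 B cell genes with a row was detected, and Pax5, Ebf1 and Ms4a1 were at 0. Of 20 T cell genes with a row, 2 were detected, the signaling genes Cd247 (50.05, 46.9 and 43.2 CPM) and Lck (2.44, 3.24 and 2.72 CPM). The defining T cell markers were not detected, and Cd3e, Cd3g, Cd8a and Bcl11b were at 0. The natural killer and innate lymphoid list had 3 of 17 detected, with all 6 defining markers at 0. The 3 were Gata3 at 118, 121 and 110 CPM, Id2 at 42.5, 44.2 and 43.9 CPM, and Nkg7 at 1.12, 1.499 and 2.46 CPM.

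Most genes of granulocyte-monocyte progenitors and macrophages were not detected either. Of 23 genes of granulocyte-monocyte progenitors, which give rise to neutrophils and macrophages, 4 were detected (17.4%, beside 45.3% of all rows). None of the 6 defining markers was. Mpo, the granule peroxidase, measured 0.140, 0 and 0 CPM, and Elane, neutrophil elastase, was at 0. Cebpa, the main granulocytic transcription factor, measured 0.0513 CPM in oil 4 and 0 in the others. The detected members included Cst7 (49.8, 58.8 and 57.9 CPM), Lgals3 (71.9, 70.6 and 74.0 CPM) and Fcgr3 (15.2, 14.9 and 16.2 CPM). Of 23 monocyte and macrophage genes 3 were detected, and Ccr2 led them at 22.9, 23.7 and 20.1 CPM. The macrophage markers C1qa, C1qb, C1qc, Csf1r, Lyz2, Adgre1 and Cd14 all fell below the detection minimum, and the summed level of the list was 34.9, 31.1 and 28.0 CPM.

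Dendritic cell genes numbered 6 detected of 18, of which Ly6d (178, 202 and 233 CPM) and Bst2 (68.1, 70.0 and 62.7 CPM) were the highest. Among its 7 defining markers Zbtb46 alone was detected, at 5.59, 4.01 and 3.64 CPM. The eosinophil list had 1 of 11 detected, Siglecf at 9.29, 6.55 and 8.10 CPM, with Prg2, Prg3 and Epx at 0. The granule proteins that define eosinophils were thus without reads. Of 22 megakaryocyte genes 11 were detected, a share near the 45.3% of all rows, and 3 of the 8 defining markers were. The summed level of this list was 627, 655 and 643 CPM. Gp1ba, a chain of the von Willebrand factor receptor, measured 51.2, 50.5 and 51.5 CPM, and F2r, a thrombin receptor, 223, 240 and 236 CPM. Itga2b (4.86, 4.76 and 5.69 CPM) and Vwf (12.8, 12.2 and 11.7 CPM) were low, and Pf4 was at 0. Endothelial and stromal genes were at or below 3.00 CPM, with 1 of 15 detected (Stab2).

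Among the lineage antigens of the T cell, granulocyte and monocyte lineages, Cd3e, Cd3g, Cd8a, Ly6g and Ly6c2 were at 0 counts in all libraries. Itgam, encoding CD11b, measured 0.168, 0.193 and 0 CPM, and Cd3d, Cd4 and Ly6c1 each had counts in a single library. A transcript level is not a surface protein level. Ptprc, the gene of CD45, whose B220 form is also in the cocktail, measured 0.168, 0.193 and 0.0513 CPM, and was chosen after its values were seen.

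**Figure D3:**
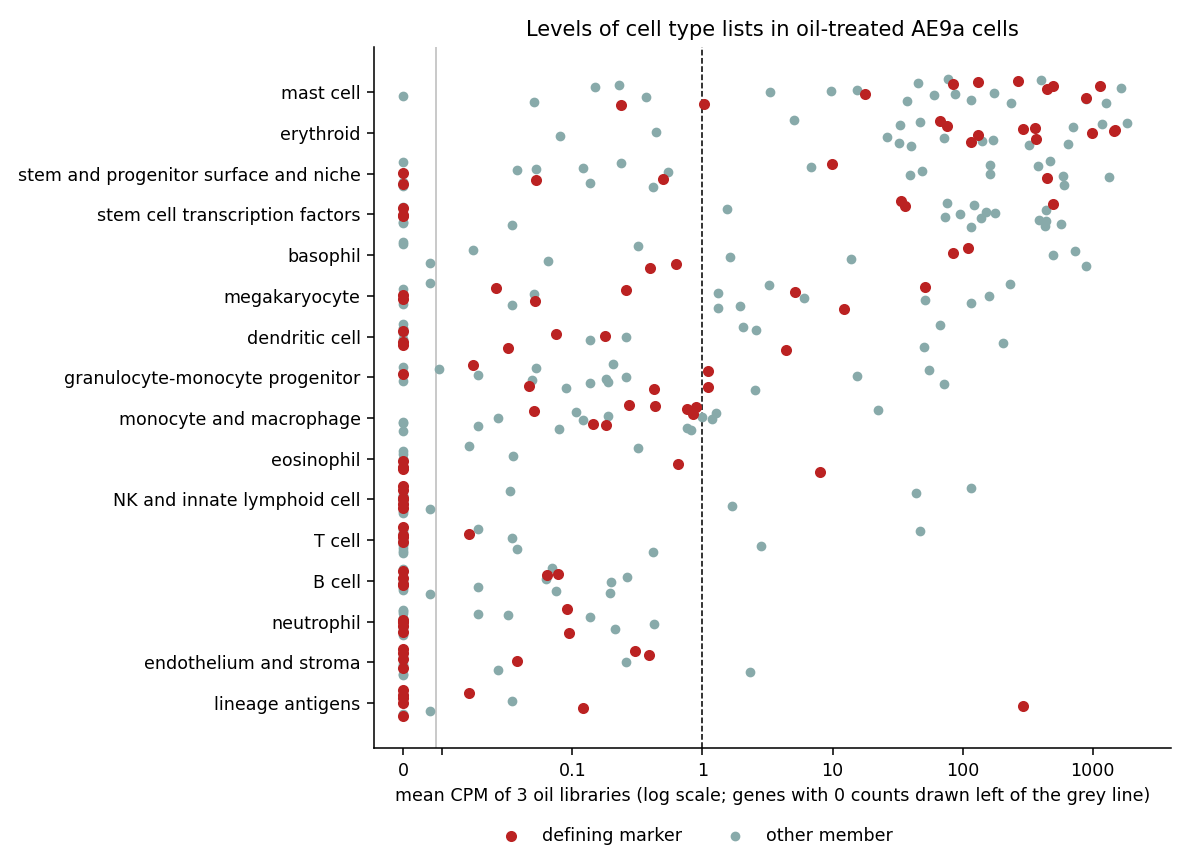
Mean CPM of 3 oil libraries on a log scale for every member of the cell type lists, with defining markers in red and other members in gray-green. Points left of the gray line had 0 counts in all libraries, and the dashed line marks 1 CPM. Mast cell and erythroid defining markers lay mostly to the right of 10 CPM, and B cell, neutrophil and T cell defining markers lay left of the dashed line.

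Stem cell identity was mixed. Of 26 surface and niche genes 12 were detected (46.2%, near the 45.3% of all rows). Itgb1 and Itga4, which form the integrin VLA-4, were high, with Itgb1 at 1338, 1373 and 1279 CPM and Itga4 at 576, 610 and 572 CPM. Itga4 was chosen after its values were seen. Spn, encoding CD43, measured 603, 598 and 611 CPM, Adgrg1 469, 470 and 466 CPM, and Cd47, the signal that restrains phagocytosis, 364, 397 and 382 CPM. Adgrg1 had a coefficient of variation (CV, SD over mean) of 0.382%. Of the 6 defining markers, Kit and Cd34 were detected, both of them markers given for the population beforehand. Flt3 and Slamf1 had 0 counts in all libraries, and Procr (0.0561, 0 and 0.102 CPM) and Ly6a, encoding Sca-1 (0.281, 0.701 and 0.513 CPM), were not detected.

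Transcription factors of stem cells were better represented, with 17 of 24 detected (70.8%, beside 45.3% of all rows). Myc measured 445, 426 and 432 CPM, Tal1 452, 419 and 419 CPM, Lmo2 183, 175 and 170 CPM, and Ikzf1 425, 443 and 446 CPM. These factors also act in erythroid or mast cells. Erg measured 36.4, 36.8 and 27.7 CPM and Hlf 42.0, 38.7 and 27.4 CPM, both lowest in oil 4. Meis1, Mecom and Hoxa9, the remaining defining factors, had 0 counts in all libraries. Over all 39 Hox rows 5 were detected, and chosen after their values were seen, Hoxc5 (137, 135 and 139 CPM) and Hoxc4 (119, 113 and 108 CPM) were the highest.

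All 19 genes of the RUNX1-ETO complex list were detected, beside 45.3% of all rows, with a median of 101 TPM. Runx1 measured 576, 581 and 544 CPM, and Runx1t1, which encodes ETO, 126, 105 and 114 CPM. Reads from the AE9a transgene cannot be told apart from those of the endogenous genes in these rows. Of the RUNX1 partner and the complex members that bind DNA or bridge it, Cbfb measured 267, 265 and 278 CPM and Ldb1 311, 305 and 317 CPM. The E-proteins Tcf3 and Tcf12 measured 269, 284 and 268 CPM and 132, 115 and 119 CPM, and Lyl1 102, 88.6 and 93.1 CPM. Over the list 12 of the 19 genes were highest in oil 1, beside 33.5% of all detected genes, and none was lowest there, with 11 lowest in oil 3 and 8 in oil 4. Per length Lmo2 was the highest of the list at 308 TPM.

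The corepressors and chromatin enzymes were also present. Ncor1 measured 421, 390 and 381 CPM, and Sin3a 148, 140 and 142 CPM. Hdac1 measured 91.1, 86.7 and 90.8 CPM, Hdac2 83.2, 74.5 and 85.5 CPM, and Hdac3 69.6, 70.7 and 69.0 CPM. Histone deacetylases are recruited by the ETO part of full-length AML1-ETO. AE9a is a truncated form, and whether it recruits them was not tested. The Hdac genes stood at like levels in every library. Ep300, an acetyltransferase, measured 270, 264 and 254 CPM, and Prmt1, an arginine methyltransferase, 165, 161 and 199 CPM. Of the other ETO family members Cbfa2t3 measured 274, 245 and 230 CPM, and Cbfa2t2 42.7, 40.9 and 41.2 CPM. Zbtb7b was at 48.3, 47.4 and 47.6 CPM.

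Across 62 hematopoietic transcription factors 46 were detected (74.2%, beside 45.3% of all rows). Klf1 (904 TPM), Myc (605 TPM), Gata1 (560 TPM), Tal1 (372 TPM) and Gata2 (350 TPM) led per length, so that both GATA factors were at a high level in the same libraries. Some factors of other lineages, Pax5, Ebf1, Bcl11b, Irf4, Cebpe and Klf4, had 0 counts. In contrast Gata3 and Id2, also in the natural killer and innate lymphoid list, and Tcf4, also in the dendritic cell list, were detected. So were Cebpb, Cebpd, Runx3 and Bcl11a. Spi1, encoding PU.1, measured 76.1, 76.5 and 68.0 CPM, and was chosen after its values were seen.

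Of 42 cytokine receptor genes 23 were detected (54.8%, beside 45.3% of all rows). Il1rl1 was the highest at 906 TPM, followed by Csf2rb, the common beta chain of the IL-3, GM-CSF and IL-5 receptors, at 378 TPM and 705, 826 and 649 CPM. Its mouse paralog Csf2rb2, which serves IL-3, measured 166, 198 and 154 CPM, and the 2 genes are similar in sequence, so reads could be shared. The alpha chains that pair with Csf2rb were low: Il3ra at 1.91, 0.895 and 2.05 CPM was not detected, Csf2ra measured 6.12, 6.50 and 7.67 CPM, and Il5ra 1.12, 0.677 and 0.128 CPM. Il9r, the receptor of a mast cell growth factor, measured 100, 98.8 and 94.6 CPM, with its partner Il2rg at 133, 136 and 149 CPM.

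The other receptors were in part detected and in part not. Il1rap, the partner of Il1rl1 for IL-33, measured 37.6, 40.1 and 41.0 CPM. Il4ra, Crlf2, Il10ra, Il10rb, Il1r1, Lifr, Tgfbr1, Tgfbr2, Insr, Igf1r, Ifngr1 and Ifngr2 were detected at 4.46 to 89.8 CPM. Il1r1 itself measured 11.8, 4.93 and 7.36 CPM, a CV of 43.2%. Flt3, Il7r, Il2ra, Il2rb, Il13ra1, Il1r2 and Osmr had 0 counts in all libraries. Csf1r, Csf3r, Il6ra, Il6st, Il18r1, Il18rap, Il21r, Tnfrsf1a and Tnfrsf1b had counts in at least 1 library and were not detected.

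Interferon signaling components were in place at baseline. Type I interferon acts through IFNAR1 and IFNAR2, the kinases JAK1 and TYK2, and STAT proteins with IRF9, which induce interferon-stimulated genes (ISGs), and USP18 restrains the receptor. Of 28 genes in the list 20 were detected (71.4%, beside 45.3% of all rows). Ifnar1 measured 90.2, 103 and 96.8 CPM and Ifnar2 90.9, 96.8 and 86.7 CPM. Jak1 was at 450, 467 and 481 CPM. The receptor and its signal path thus varied little. The highest ISGs per length were Bst2 at 280 TPM and Oas1a at 84.3 TPM. Isg15, the ubiquitin-like modifier that USP18 removes from proteins, measured 13.2, 18.0 and 7.95 CPM, which is a 2.26-fold range. Ifnb1 and Ifna4 had 0 counts, and the other members not detected were Ifit3, Mx1, Mx2, Rsad2, Ifi44 and Ifitm3. Over the detected members 14 of 20 were highest in oil 3, beside 34.4% of all detected genes.

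Cell cycle genes were detected in 29 of 30 cases (96.7%, beside 45.3% of all rows), with a median of 212 TPM. Mki67, a marker of cycling cells, measured 1389, 1152 and 1136 CPM. The replication licensing genes Mcm3 (743, 658 and 682 CPM), Mcm6 (868, 732 and 827 CPM), Mcm5 (640, 530 and 602 CPM) and Mcm4 (483, 411 and 449 CPM) led the list per length. Each of these was highest in oil 1, as were 20 of the 29 detected members, beside 33.5% of all detected genes. The member that was not detected was Ccnd1 (1.12, 2.37 and 0.923 CPM).

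The 3 libraries resembled each other closely. The Pearson correlation of log2 CPM across genes (prior count of 2) was 0.9925 between oil 1 and oil 3, 0.9935 between oil 1 and oil 4 and 0.993 between oil 3 and oil 4, and genes are not independent replicates. No pair was alike within sampling noise, since the chi-square of their counts per degree of freedom was 7.37 to 10.1, so each library counted as 1 sample. Over the 11179 genes that passed the low-count filter the median CV was 6.87%, and from the 10th to the 90th percentile it ran from 2.30% to 20.9%. Counting error alone, as 1 over the square root of the mean count, gave a median of 3.51%. The CV exceeded that value for 79.7% of genes. The common biological coefficient of variation (BCV), which edgeR estimates beyond counting error, was 0.0765. The spread depended on level, with a median CV of 17.6% for 2167 genes from 1 to 10 CPM, 6.64% for 6048 genes from 10 to 100 CPM and 4.36% for 2672 genes from 100 to 1000 CPM.

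Few genes varied widely. Of 8780 genes with a mean of at least 10 CPM, 18 (0.205%) differed at least 2-fold between the highest and the lowest library. Tcf23, a helix-loop-helix gene, stood apart at 2.11, 53.6 and 4.51 CPM, a 25.5-fold range set by oil 3. Slc4a1 followed at 3.72-fold and Dtx4, a Deltex E3 ligase gene, at 3.31-fold (5.42, 17.9 and 7.25 CPM). No other gene at this level came near the range of Tcf23. Oil 3 was the library farthest from the middle value for 11 of these 18 genes, above it for 5 and below it for 6. Cpt1a, which admits long-chain fatty acids to mitochondria, measured 130, 308 and 131 CPM. Genes lowest in oil 3 included Cecr2 (22.7, 7.96 and 16.7 CPM), Rasa3 (11.6, 7.16 and 17.3 CPM) and Itga9 (29.7, 14.0 and 21.5 CPM). Oil 4 was farthest, and lowest, for 4 genes, Slc4a1, Alas2, Isg15 and Slfn14 (11.3, 16.4 and 7.05 CPM). Oil 1 stood farthest for Cd63 (10.5, 23.2 and 17.1 CPM), Mlph (7.61, 15.8 and 14.0 CPM) and Camsap2 (24.4, 11.9 and 13.2 CPM). The beta globin rows Hbb-b2 and Hbb-bt, which share reads, both ranged 2.13-fold. Without oil 3, 1 gene remained past 2-fold at this mean, Slc4a1 at 2.93-fold.

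**Figure D4:**
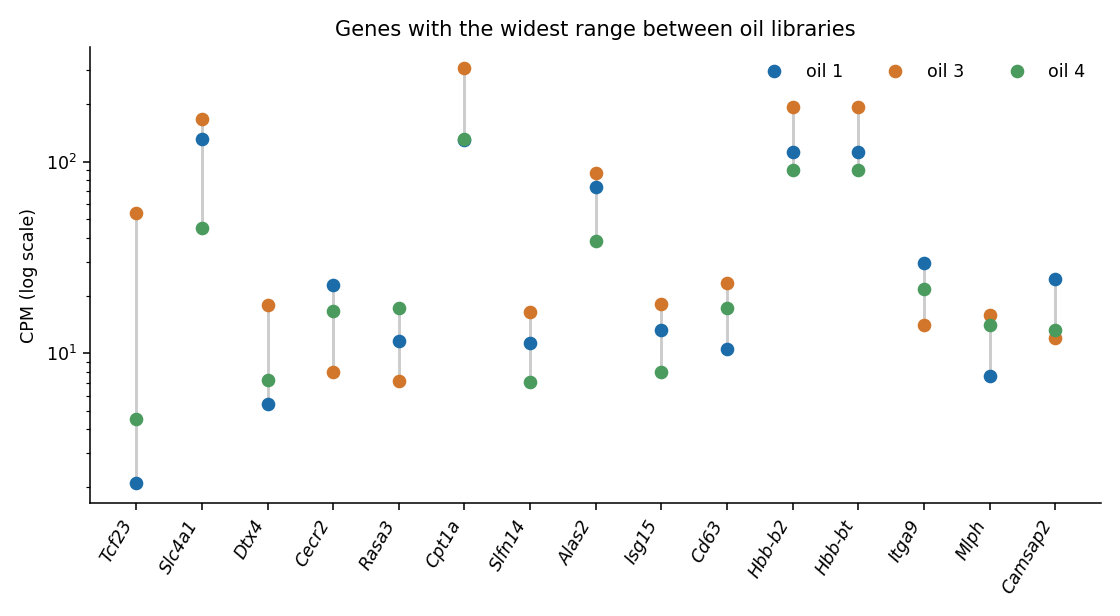
CPM in each oil library (log scale) for the 15 genes with the largest ratio of highest to lowest library at a mean of at least 10 CPM, joined by a gray line. Oil 3 held the highest value of Tcf23, Dtx4 and Cpt1a, and oil 4 the lowest of Slc4a1, Alas2 and Isg15.

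At the other end, Akt1, a survival kinase, measured 432, 433 and 432 CPM with a CV of 0.0726%. Erap1 (99.3, 99.4 and 99.2 CPM) and Got2 (287, 287 and 288 CPM) came next, and Eif4b, Wdr1, Dus2, Ugcg, Pkn2, Lgals9 and Ecd completed the 10 genes of smallest CV, all at or below 0.179%. Such values lie below the counting error of these genes and were picked as the lowest of many. The median CV over detected members was 11.4% for the erythroid list, 8.78% for the mast cell list, 4.74% for the hematopoietic transcription factors and 3.58% for the RUNX1-ETO list, beside 6.64% over all detected genes. Some lists with few or low detected members had higher medians, such as 15.4% for the monocyte and macrophage list and 14.7% for the dendritic cell list. Others did not, such as the megakaryocyte list at 5.77% and the natural killer and innate lymphoid list at 5.03%. A gene's level bears on its CV, and the lists were not matched for level.

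**Figure D5:**
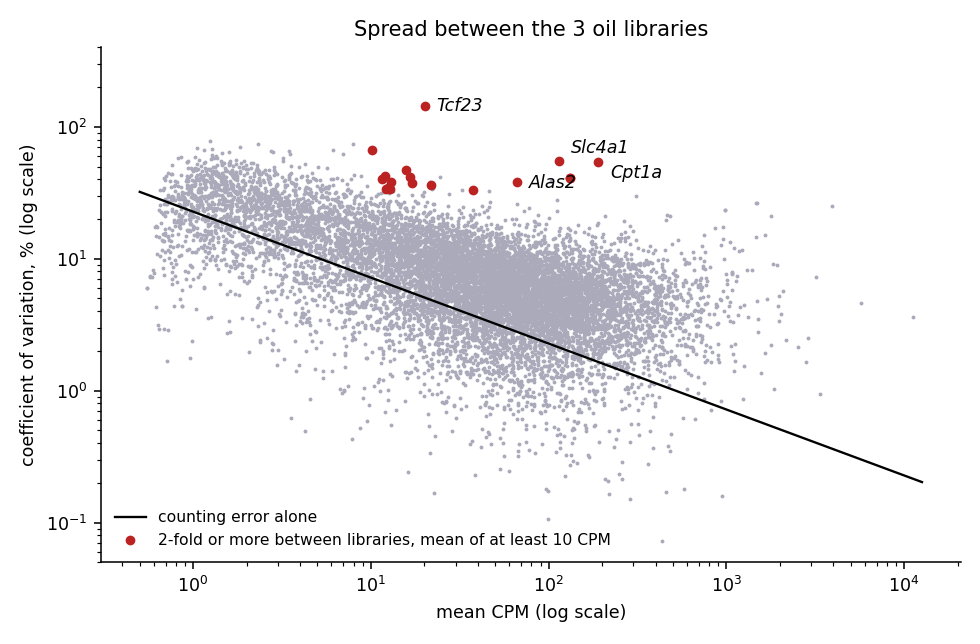
CV between the 3 oil libraries in percent against mean CPM for 11179 genes, both on log scales. The black line is the CV that counting error alone would give, most genes lay above it, and the red points are the 18 genes with a range of at least 2-fold, Tcf23 the highest.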

How the data were processed

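RNA from GFP+ Lin- c-Kit+ splenocytes was sequenced as paired-end reads on an Illumina NovaSeq instrument, and the submitters' processing notes name STAR, DESeq2 and mm10. The counting program, strand setting and annotation are not given in the sources used here. The authors deposited expected counts per gene symbol for each library, unscaled, of which 25.9% to 26.6% per library were not whole and the smallest positive value was 0.5. The 3 columns of the tamoxifen group were not used. The members and lists were chosen with earlier results of these data known. No p-value was computed, since a single group allows no comparison, and errors are SDs between 3 mice.

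Scaling was by TMM in edgeR 4.0.16 (R 4.3.3). CPM used all rows, and counts were rounded for edgeR's dispersion estimate (filterByExpr, robust, intercept only), which was tested on simulated data. TPM used the union exon length of GENCODE M21 (GRCm38, the build called mm10), which held 97.6% of the symbols. Rows without a length took 1.60% to 1.77% of the counts. There were 26 rows with a date in place of a symbol, which stayed in totals and were not named. The lists held 430 distinct genes in 22 lists, of which 422 had a row and 208 were detected, and 8 without a row (Ighm, Ighd, Igkc, Iglc2, Trac, Trbc1, Trbc2 and Ahsp) were not analysed here. Some genes that the rule would name are not reported here. Named genes were the 4 markers, Usp18, all members of the lineage antigen, RUNX1-ETO and cytokine receptor lists, and for other lists the defining markers and the 5 members of highest TPM. The 25 genes of highest TPM, the 15 of largest ratio and the 10 of smallest CV (mean of at least 10 CPM) were added. Any further gene was picked with its values known, and not all of these carry a remark in the text. Mrgprb1, Irf4, Cebpe, Klf4, Ccnd1, Ifnb1 and Ifna4 are among those without one. Alternatives covered the detection minimum, scaling, gene length, low-count filters, DESeq2 1.42.0 dispersion and leaving out each library.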

Additional observations from a re-analysis of the deposited data

How the results depend on the processing

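No paired analysis was possible because no comparison between groups was made. Detected genes numbered 11194 at a minimum of 0.5 CPM and 9376 at 5 CPM, against 10693, and 10780 to 10795 when 1 library was left out, and list members detected numbered 184 to 215 over all alternatives. Of the 22 lists, the monocyte and macrophage list moved by more than 1.5 times at 0.5 CPM, and this list and the megakaryocyte, dendritic cell, T cell, and endothelium and stroma lists did at 5 CPM. The top 100 genes held 24.0% of TPM, 23.3% with the length of the longest transcript, 14.2% without length scaling and 22.7% without globin rows (an alternative chosen after seeing the data), and 23.7% to 24.2% with 1 library left out. The median CV was 6.33% at a mean of at least 50 counts and 7.71% without a low-count filter, and with 2 libraries, whose CV is smaller by construction, 5.30% to 5.95%. The common BCV was 0.0668 to 0.0828 with 1 library left out, lowest without oil 3. The 2-fold count of 18 became 304 at a mean of at least 1 CPM, where counting error is larger, 5 at 50 CPM, and 1 to 14 with 1 library left out, namely 14 without oil 1, 1 without oil 3 and 9 without oil 4. Leaving out Rn45s, also chosen after seeing the data, gave 18. Depth limits statements on genes at 0 to a ceiling of 0.168 CPM.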

Other observations

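Lists of general leukocyte, fatty acid oxidation and heat shock genes were added after the values were seen and are given as values. Of 16 leukocyte genes 11 were detected, beside 45.3% of all rows. Laptm5 measured 897, 924 and 847 CPM in oil 1, oil 3 and oil 4, Rac2 917, 900 and 883 CPM, Coro1a 325, 386 and 382 CPM and Vav1 147, 156 and 151 CPM. In contrast Ptprc (0.168, 0.193 and 0.0513 CPM), Cd53 (0.112, 0.0484 and 0.102 CPM) and Cd52 (0.814, 1.11 and 1.13 CPM) fell short of 1 CPM in at least 1 library, as did Fcer1g and Tyrobp, the adaptors of activating receptors.

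Fatty acid oxidation genes were highest in oil 3 for 13 of 15 detected members, beside 34.4% of all detected genes. The list was written with these values known and holds Cpt1a, named above for its range. The share therefore describes the list and is no support for a pattern, and its members are not independent. Hadh measured 76.8, 149 and 82.9 CPM, Slc25a20, the carnitine carrier, 18.5, 36.5 and 18.7 CPM, and Etfdh 55.4, 86.4 and 57.4 CPM. Heat shock genes, a list with the same limits, were lowest in oil 3 for 7 of 11 members, beside 34.9% of all detected genes. Hsph1 measured 143, 80.6 and 109 CPM and Hsp90aa1 2206, 1485 and 1674 CPM. Rn45s (2855, 4770 and 4167 CPM) and Lars2 (217, 402 and 309 CPM) were highest in the same library.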
